A study of Mus musculus with 6 samples.

Results

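The miR-467 family is a set of closely related mouse microRNAs made from repeated genes inside the gene Sfmbt2, and 5 of its guide-strand assays, miR-467a, miR-467b, miR-467c, miR-467d and miR-467e, were measured here among 517 microRNA assays. Members were chosen by assay name, without passenger strands (marked with a star), and all 5 were detected in every aorta. The family was taken up because earlier results of the same genotype comparison had listed miR-467d as lower, so the genotype differences of its members are given as a description. Whether a fit over all assays called a member is stated beside the share of all assays called, and nothing is read from it.

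The samples were whole aortas of 6 male Apoe-/- mice (no apolipoprotein E, which makes mice prone to atherosclerosis), and the mice started a high-fat diet with 21% crude fat at 6 to 8 weeks of age and stayed on it for 12 weeks. The 3 Dicer_KO aortas came from LysM-Cre/Dicer flox/flox/Apoe-/- mice, and the 3 Dicer_WT aortas from LysM-Cre/Dicer wt/wt/Apoe-/- littermates, so Cre recombinase and the loss of Apoe were shared by both groups. Cre was driven by the lysozyme M locus, a gene of macrophages, monocytes and neutrophils, and the other cells of the vessel wall keep Dicer by design. The labels call the replicates biological. They name macrophage as the cell type, whereas the smooth muscle marker miR-145 was read at Ct 11.8 in Dicer_WT aortas and the granulocyte and macrophage marker miR-223 at Ct 19.6.

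Dicer is the endonuclease that cuts a hairpin precursor into a short duplex, of which the guide strand is loaded into an Argonaute protein and the passenger strand is mostly discarded. Here the strands are called guide and passenger by assay name alone, and which strand was the more abundant was not tested. The miR-467 hairpins stand next to hairpins of the miR-466, miR-669 and miR-297 families in a large rodent-specific cluster within an intron of Sfmbt2, an imprinted Polycomb-group gene best known for its role in placenta. Within this family, miR-467b has been described as a repressor of lipoprotein lipase, the enzyme that releases fatty acids from lipoproteins, in macrophages.

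In the RefSeq gene table (assembly GRCm38), 72 microRNA genes lie within Sfmbt2, 14 of them of the miR-467 family, 24 of miR-466, 29 of miR-669 and 5 of miR-297. Of the 14, 10 are copies of miR-467a, and miR-467b, miR-467c, miR-467d and miR-467e have 1 gene each. Mir467c is the first and Mir467d the last of the 14 along the chromosome, with 41 other microRNA genes between them. Mir467e and Mir467d are close neighbours, with 1 gene between them. By name, the assay of miR-467a therefore stands for up to 10 genes and each of the others for a single gene. Whether an assay also reads closely related members was not tested here.

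The RefSeq microRNA table (build GRCm38.p6) gave a mature sequence for 0 of the 5 members. It held miR-467h, a relative by name that was not on these cards and lies outside Sfmbt2, on the plus strand at chr9:115381898-115381919. Its sequence is shown for itself alone, and whether the members share its features could not be seen here. Capitals mark the seed, bases 2 to 8, which guides pairing with target messenger RNAs.
miR-467h: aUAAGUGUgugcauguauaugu
The sequence has an unbroken alternation of G and U over 7 bases and a length of 22 bases.

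Each aorta was read once per assay by TaqMan PCR after reverse transcription and preamplification, as a threshold cycle (Ct). A Ct that is lower by 1 corresponds to about 2 times the RNA, and 40 stands for a well without product. The authors' relative quantity sets the Ct of an assay against reference RNAs read in that aorta on that card, with the Dicer_WT aortas at a geometric mean of 1. Below Ct 35, taken as detected, lay 374 to 378 assays per Dicer_WT aorta and 349 to 366 per Dicer_KO aorta. Of 377 assays tested with limma, 7 were called lower in Dicer_KO aortas and 0 higher at an adjusted p under 0.05, against 92 lower and 9 higher at an unadjusted p under 0.05. The median log2 fold change of the 377 was -0.42, and it turned to 0.16 with the control RNAs U87 and Y1 as the reference, so changes of single microRNAs are read against that shift.

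Among the members in Dicer_WT aortas, miR-467b, miR-467c and miR-467a were read earliest, at Ct 25.4 ± 0.186, 25.65 ± 0.472 and 25.7 ± 0.356 (SD, n = 3 each). Their means lay close together. Within an aorta the Ct of miR-467a minus that of miR-467b was 0.252 ± 0.220, and that of miR-467c minus that of miR-467a, -0.03 ± 0.311, stayed within its spread. miR-467e followed at 28.0 ± 0.163, and within an aorta the Ct of miR-467a minus that of miR-467e was -2.32 ± 0.213. miR-467d came last at 30.0 ± 0.603, within an aorta 1.96 ± 0.506 cycles after miR-467e. These cycles order the assays, not molecule numbers, because the efficiency of each assay is not given in the sources used here.

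In Dicer_KO aortas the order became miR-467b at Ct 25.8 ± 0.307, miR-467a at 26.4 ± 0.596, miR-467c at 26.7 ± 0.242, miR-467e at 28.6 ± 0.538 and miR-467d at 32.8 ± 0.166 (SD, n = 3 each). The difference between miR-467a and miR-467c stayed within its spread. The distance from miR-467e to miR-467d was 4.24 ± 0.379 cycles, against 1.96 ± 0.506 in Dicer_WT aortas.

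The member with the widest difference between genotypes was miR-467d. Its relative quantities were 1.13, 0.655 and 1.35 in Dicer_WT replicates 1 to 3 and 0.157, 0.168 and 0.147 in Dicer_KO replicates 1 to 3. All Dicer_KO aortas lay below all Dicer_WT aortas, and the lowest Dicer_WT aorta was replicate 2. The log2 fold change was -2.67 ± 0.302 (SE, n = 3 each), a fold of 0.157, and it ranked 23 from the lowest of 377 assays. The direction held under all 19 alternatives, from -2.97 to -1.64. On the log2 scale the SD was 0.094 among Dicer_KO aortas and 0.54 among Dicer_WT aortas. Among 10 assays that were detected in all 6 aortas and had a mean Dicer_KO Ct of 32 to 34, the SD over Dicer_KO aortas ran from 0.094 to 1.64 with a median of 0.69, and that of miR-467d was the lowest. The family was taken up through these same values of miR-467d, so this rank is a description and no evidence of precision.

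The relative quantities of miR-467c were 1.21, 0.767 and 1.08 in Dicer_WT replicates 1 to 3 and 0.604, 0.597 and 0.511 in Dicer_KO replicates 1 to 3. Here too the groups did not overlap, and Dicer_WT replicate 2 was again the lowest of its group. The log2 fold change was -0.81 ± 0.230 (SE, n = 3 each), a fold of 0.569, which stayed below 0 under all 19 alternatives (-1.04 to -0.30).

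miR-467a had relative quantities of 1.14, 0.973 and 0.899 in Dicer_WT replicates 1 to 3 and of 1.00, 0.560 and 0.631 in Dicer_KO replicates 1 to 3. The groups overlapped, since Dicer_KO replicate 1 lay within the Dicer_WT range. It differed by -0.50 ± 0.272 on the log2 scale (SE, n = 3 each), a value that was 0.013 relative to U87 and Y1, -0.13 with mean centring and -0.12 after quantile normalization. It was -0.75 without Dicer_KO replicate 1 and -0.33 without replicate 2.

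miR-467e had relative quantities of 0.985, 0.976 and 1.04 in Dicer_WT replicates 1 to 3 and of 1.03, 0.719 and 0.602 in Dicer_KO replicates 1 to 3. Again replicate 1 of the Dicer_KO aortas lay at the Dicer_WT level and the other 2 below it. The log2 fold change of -0.39 ± 0.243 (SE, n = 3 each) turned to 0.12 relative to U87 and Y1 and to 0.15 after quantile normalization, was -0.02 with mean centring, and leaving out Dicer_KO replicate 1 gave -0.60, leaving out replicate 3 -0.21.

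miR-467b, the member linked to lipoprotein lipase, had the smallest difference. Its relative quantities were 0.965, 1.10 and 0.944 in Dicer_WT replicates 1 to 3 and 1.02, 0.864 and 0.828 in Dicer_KO replicates 1 to 3. Dicer_KO replicate 1 lay within the Dicer_WT range. The log2 fold change of -0.15 ± 0.177 (SE, n = 3 each) turned to 0.36 relative to U87 and Y1, to 0.21 with mean centring and to 0.16 after quantile normalization. Leaving out Dicer_KO replicate 1 gave -0.24 and leaving out replicate 3 gave -0.09. Leaving out Dicer_WT replicate 2 gave -0.08.

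**Figure D1:**
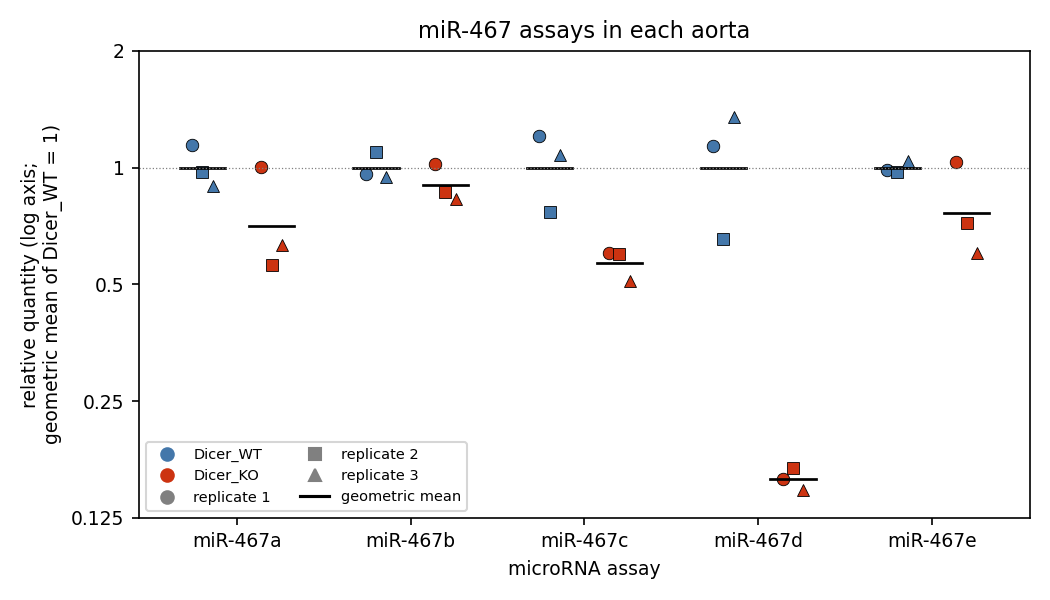
Relative quantity of the 5 miR-467 assays in each aorta, on a logarithmic axis on which the Dicer_WT aortas have a geometric mean of 1; points are single aortas, symbols mark replicate numbers and bars are geometric means. The Dicer_KO aortas lie between 0.147 and 0.168 for miR-467d, whereas Dicer_KO replicate 1 lies within the Dicer_WT range for miR-467a, miR-467b and miR-467e.

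Of the 5 members, 1 (miR-467d) was called lower by limma and 0 higher, where 1.86% of all assays tested were called lower. For 2 members (miR-467c and miR-467d) every Dicer_KO aorta lay below every Dicer_WT aorta, as for 32.6% of all assays tested. Without Dicer_KO replicate 1, all 5 members met this condition, as did 53.7% of the assays then tested. All 5 members had a log2 fold change below 0, as did 78.2% of all assays tested. The median of the members was -0.50 beside -0.42 for all assays tested, and 3 of the 5 lay below the latter value. Because miR-467d was the reason to take up the family in this same comparison, its call is no evidence of its own and these counts support nothing further. miR-467d was not called with quantile-normalized values, with the replicate number as a block or without Dicer_WT replicate 1, 3 of its 19 alternatives.

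**Figure D2:**
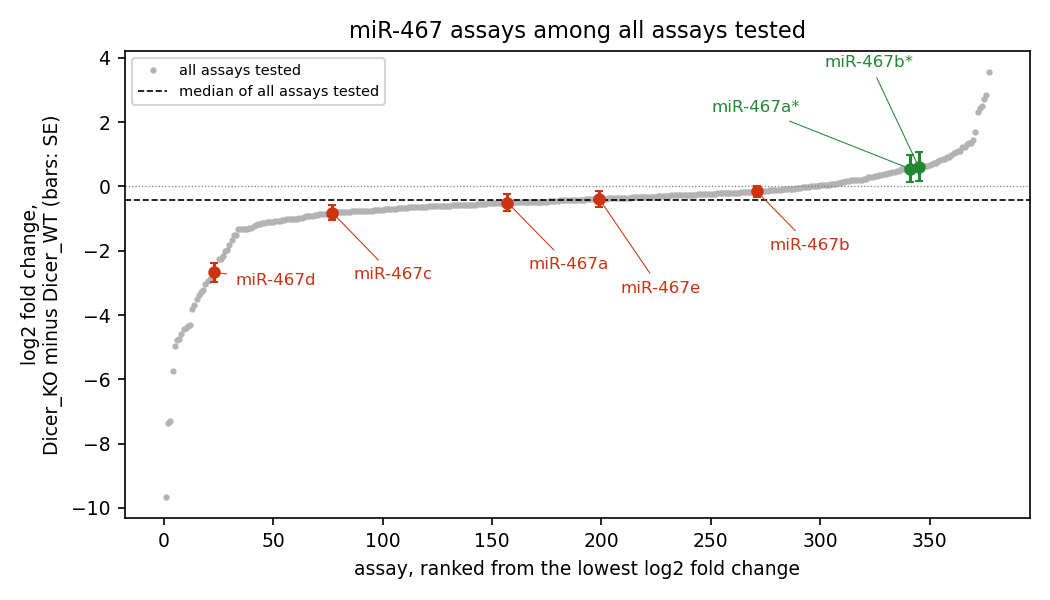
Log2 fold change (Dicer_KO minus Dicer_WT) of the 377 assays tested, ranked from the lowest, with the 5 miR-467 guide strands and 2 passenger strands marked and their SE as bars. miR-467d stands at rank 23, miR-467c at 77, miR-467a at 157, miR-467e at 199 and miR-467b at 271; the dashed line is the median of all assays tested, -0.42.

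Subtracting the values of a pair of members within an aorta removes the reference RNAs, since all 5 assays share a card. This was done for all 10 pairs. The 4 pairs with miR-467d separated the genotypes without overlap, but the family was chosen for the level of miR-467d, so their sizes are given as a description without a test. Relative to miR-467b, miR-467d stood at 0.23, -0.75 and 0.51 in Dicer_WT replicates 1 to 3 and at -2.70, -2.36 and -2.49 in Dicer_KO replicates 1 to 3 (log2, Dicer_WT mean at 0). The Dicer_KO aortas were at -2.52 ± 0.394 relative to the Dicer_WT aortas (SE, n = 3 each). Relative to miR-467c, the member nearest to it in response, miR-467d stood at -0.09, -0.23 and 0.32 in Dicer_WT and at -1.94, -1.83 and -1.79 in Dicer_KO replicates 1 to 3. That difference of -1.86 ± 0.170 (SE) had the least spread of the 4, with an SD of 0.078 among Dicer_KO aortas. The differences relative to miR-467e and miR-467a were -2.28 ± 0.365 and -2.17 ± 0.430 (SE). At a Ct cutoff of 32, where the Dicer_KO wells of miR-467d only give a bound, the 4 differences were -1.67 (miR-467b), -1.01 (miR-467c), -1.43 (miR-467e) and -1.32 (miR-467a). After quantile normalization the difference from miR-467c was -1.18.

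The 6 pairs without miR-467d were compared between genotypes by an exact permutation test over aortas (two-sided, smallest possible p = 0.1). The p-values are unadjusted, because an adjustment over all 10 pairs would draw on the pairs with miR-467d. Of the 6 pairs, 1 separated the genotypes without overlap. This was miR-467c against miR-467b, at 0.32, -0.52 and 0.19 in Dicer_WT and at -0.76, -0.53 and -0.70 in Dicer_KO replicates 1 to 3. The difference was -0.66 ± 0.270 (SE, exact permutation p = 0.1). The highest of those Dicer_KO values and the lowest of the Dicer_WT values lay side by side, at -0.53 and -0.52, and after quantile normalization this pair had an exact permutation p of 0.2. The other 5 pairs overlapped, with differences from -0.43 (miR-467c minus miR-467e) to -0.11 (miR-467a minus miR-467e) and exact permutation p of 0.2 to 0.6. With 3 aortas in each group no pair could pass 0.05, so these p-values do not show that those members respond alike.

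**Figure D3:**
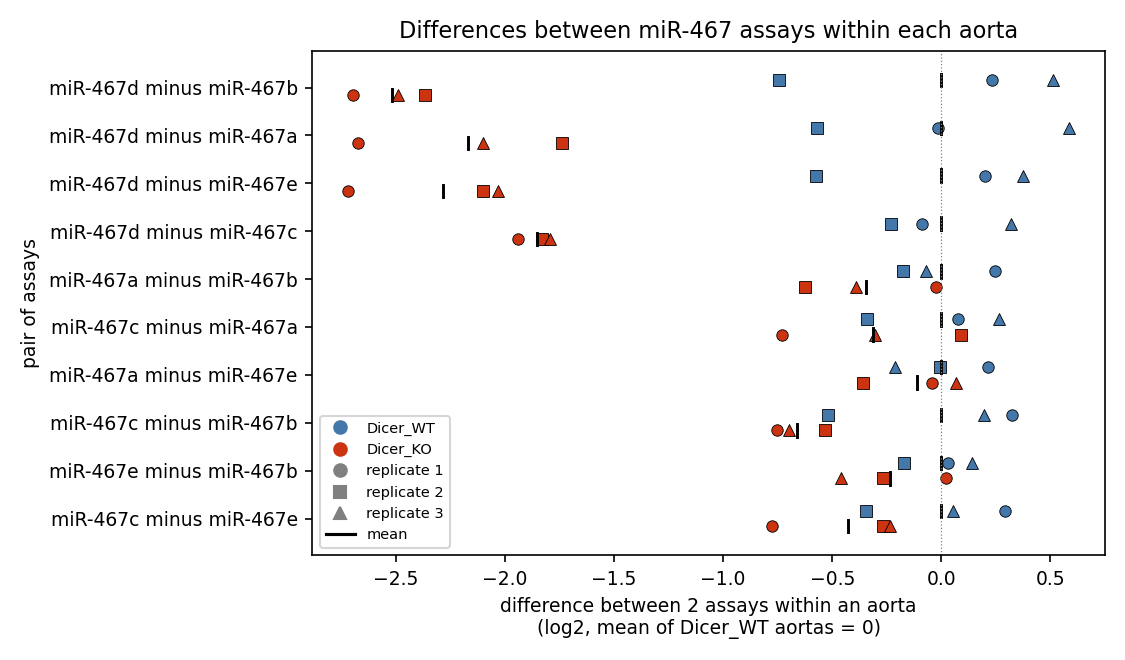
Difference in log2 relative quantity between each pair of miR-467 assays within an aorta, with the mean of the Dicer_WT aortas set to 0; points are single aortas, symbols mark replicate numbers and short bars are means. In the 4 upper rows, miR-467d minus another member, all Dicer_KO aortas lie at -1.74 or below and all Dicer_WT aortas at -0.75 or above.

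The members also differed in how single aortas were placed. In Dicer_KO replicate 1, the log2 deviations from the Dicer_WT mean were -2.67 for miR-467d and -0.73 for miR-467c, but 0.003 for miR-467a, 0.027 for miR-467b and 0.047 for miR-467e. In Dicer_KO replicate 2 they were -2.57 and -0.74 for miR-467d and miR-467c and from -0.84 to -0.21 for the others. In Dicer_KO replicate 3 they were -2.76 and -0.97, and from -0.73 to -0.27 for the others. The median over all assays tested was -0.21, -0.40 and -0.62 in Dicer_KO replicates 1 to 3, so replicate 1 was nearest to Dicer_WT for the whole array too. miR-467c and miR-467d were the pair with the most similar placing over the 6 aortas, also with the genotype means removed (Pearson r = 0.87, against 0.96 with them, n = 6, a description). The genes of this pair lie at opposite ends of the miR-467 copies. For miR-467d and miR-467e, whose genes are close neighbours, Pearson r was 0.15 with the genotype means removed. Whether gene position has a part in these values was not tested.

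Passenger strands of 3 hairpins were on the second card, and their values are a description as well. In Dicer_WT aortas miR-467a* was read at a mean Ct of 22.39, before miR-467a at 25.68 (22.02 and 26.40 in Dicer_KO aortas). By contrast, miR-467b* was read at 27.04, after miR-467b at 25.43 (26.60 and 25.80 in Dicer_KO aortas). Cycles of different assays do not give molecule numbers, so the star in a name is not read as the minor strand. miR-467a*, the other strand of the miR-467a hairpins, had relative quantities of 0.890, 0.938 and 1.20 in Dicer_WT replicates 1 to 3 and of 0.814, 2.42 and 1.60 in Dicer_KO replicates 1 to 3. miR-467b* had 0.994, 1.06 and 0.950 in Dicer_WT and 0.808, 2.67 and 1.68 in Dicer_KO replicates 1 to 3. In both, Dicer_KO replicates 2 and 3 lay above all Dicer_WT aortas and replicate 1 below them, so the groups overlapped. Their log2 fold changes were 0.55 ± 0.421 and 0.62 ± 0.442 (SE, n = 3 each), neither called. They were 0.19 and 0.22 with replicate 2 of the Dicer_KO aortas left out, 0.98 and 1.08 with replicate 1 left out, and 1.19 and 1.26 relative to U87 and Y1. Both stayed above 0 under all 19 alternatives, while the guide strands of the same hairpins had -0.50 and -0.15.

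Set within each aorta, the passenger strand of miR-467a stood relative to its guide strand at -0.36, -0.05 and 0.41 in Dicer_WT and at -0.30, 2.11 and 1.34 in Dicer_KO replicates 1 to 3 (log2, Dicer_WT mean at 0). For the miR-467b hairpin the values were 0.043, -0.05 and 0.009 in Dicer_WT and -0.34, 1.63 and 1.02 in Dicer_KO replicates 1 to 3. The 2 aortas in which the guide strands were lowest were thus those in which the passenger strands were highest. The strands were read on different cards, so this difference, unlike that between guide strands, depends on the reference RNAs. The third passenger assay, miR-467e*, gave a product in Dicer_WT replicate 2 alone (Ct 28.2, the other 5 aortas at 40). It was not tested, and its ratio of 9.3e-04 in the authors' deposited table rests on that well.

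**Figure D4:**
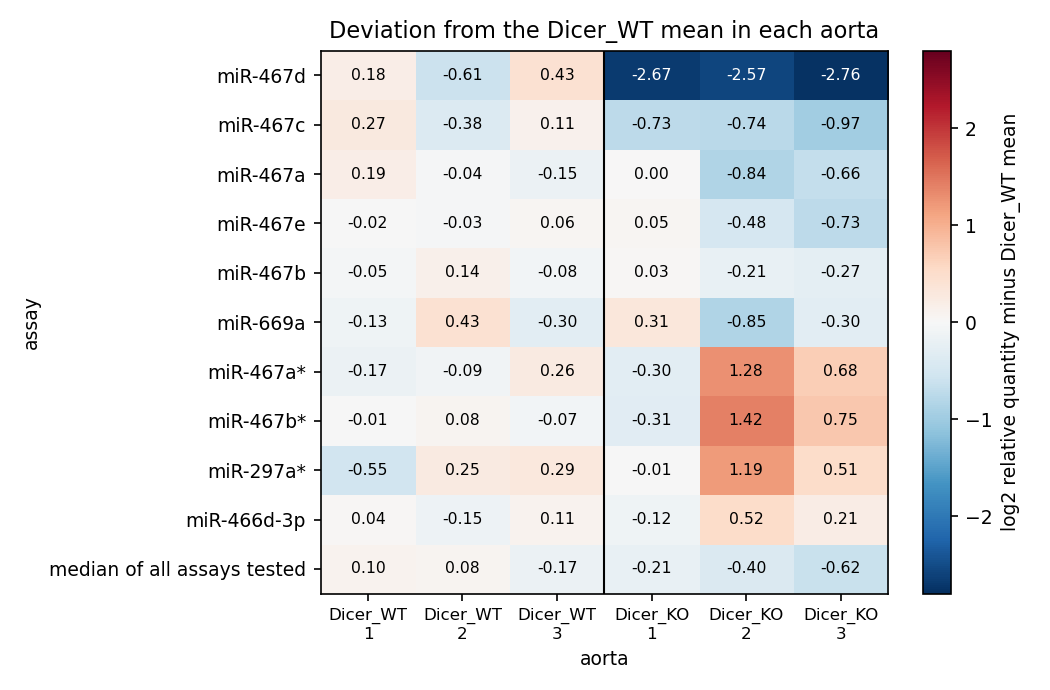
Log2 relative quantity minus the Dicer_WT mean in each of the 6 aortas for the miR-467 guide strands, their passenger strands, the detected assays of the neighbouring families and the median of all assays tested; colours run from blue (lower) to red (higher) and each cell holds its value. Dicer_KO replicates 2 and 3 reach 1.28 and 0.68 for miR-467a* and 1.42 and 0.75 for miR-467b*, where miR-467a is at -0.84 and -0.66.

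Of 10 assays of the neighbouring families, 7 gave no product in any aorta (5 of 6 for miR-466 and 2 of 3 for miR-297), and 3 were detected in all 6. miR-669a, on the first card, differed by -0.28 ± 0.362 on the log2 scale (SE, n = 3 each), with Dicer_KO aortas at 0.31, -0.85 and -0.30, and it turned to 0.23 relative to U87 and Y1, to 0.088 with mean centring and to 0.024 after quantile normalization. On the second card, miR-297a* had 0.57 ± 0.395, the highest of the 3, and miR-466d-3p 0.20 ± 0.224, which turned to -0.05 relative to U6. In these 2 assays Dicer_KO replicate 2 was highest, as in the miR-467 passenger strands. That aorta was also the highest for miR-126-3p, miR-126-5p, miR-451, miR-486, miR-122 and miR-150, so this placing is not particular to the cluster. It was not the highest for miR-143, miR-145, miR-181a or most of the myeloid markers. None of the 3 neighbouring assays was called, and miR-669a, the lowest of the 3, had its lowest value in Dicer_KO replicate 2.

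Over the 6 aortas, the mean of the 5 members was followed most closely by miR-330*, miR-99b*, miR-301a, miR-99b and miR-301b among 320 assays outside the cluster that were detected in every aorta (Pearson r = 0.99, 0.98, 0.98, 0.97 and 0.97). With a log2 fold change of -2.67, miR-467d weighs most in the genotype difference of that mean, so these r need not hold for the other members singly. The median r of the 320 was 0.69 and 45 exceeded 0.9, and all share aortas and reference RNAs. With genotype means removed, miR-330* kept r = 0.94, behind miR-877* and let-7g* (each 0.98), miR-196b (0.96) and miR-214 (0.95). The log2 fold changes of the first 5 ran from -1.22 for miR-301b to -0.77 for miR-99b. Their mature sequences are printed where RefSeq (GRCm38.p6) held them, which was so for 4 of the 5 (miR-301b was not matched), with the seed in capitals, so that the microRNAs of like pattern can be seen.
miR-330*: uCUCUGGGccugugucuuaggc
miR-99b*: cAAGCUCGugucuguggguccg
miR-301a: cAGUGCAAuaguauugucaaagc
miR-99b: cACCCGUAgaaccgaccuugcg
They lie on the plus strands at chr7:19181486-19181507, chr17:17830232-17830253, chr11:87113054-87113076 and chr17:17830194-17830215. As background, miR-301b belongs to the seed family of miR-301a. How these seeds relate to those of the members was not analysed here.

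Markers of cell types differed in how they lay between the genotypes. Of 8 myeloid assays, 7 were detected in all 6 aortas and miR-147 gave no product in any Dicer_KO aorta, and for 6 of the 8 the Dicer_KO aortas all lay below the Dicer_WT aortas, as for 32.6% of all assays tested, with 0 called. With undetected wells at their limit, the summed relative quantity of the 8 was 6.21 to 9.91 in Dicer_WT and 3.13 to 4.97 in Dicer_KO aortas. In that sum miR-147 entered at its limit in all Dicer_KO aortas. Its log2 deviations in Dicer_WT replicates 1 to 3 were 1.67, 0.11 and -1.78, and the sum without it was not computed. For miR-223, a microRNA of granulocytes and macrophages, the deviations of Dicer_KO replicates 1 to 3 were -1.84, -1.12 and -2.03, and miR-467d stood at -2.67, -2.57 and -2.76 in the same aortas. The 2 strands of miR-142, a microRNA of all blood leukocytes, lay at -0.07 (miR-142-3p) and -0.09 (miR-142-5p) with overlapping groups. For the smooth muscle pair miR-143 and miR-145 the summed relative quantity was 1.81 to 2.19 in Dicer_WT and 1.14 to 1.76 in Dicer_KO aortas. Within that pair, miR-145 in Dicer_KO replicates 1 to 3 stood at -0.06, -0.54 and -0.65, with replicate 1 nearest to Dicer_WT as for miR-467a, miR-467b and miR-467e. Replicate 1 was also nearest for the median of all assays tested (-0.21, -0.40 and -0.62), so this placing is not particular to smooth muscle. The erythroid pair miR-451 and miR-486 ran the other way, with a sum of 1.00 to 3.60 in Dicer_WT and of 4.10 to 6.28 in Dicer_KO aortas. Taken singly, miR-451 did not overlap between the genotypes, but miR-486 did (0.67 in Dicer_KO replicate 1, 0.76 in Dicer_WT replicate 1). The liver marker miR-122 had a log2 fold change of 1.36 with overlapping groups. The endothelial miR-126-3p and miR-126-5p (-0.01 and 0.47) and the lymphoid miR-150 and miR-181a (0.53 and -0.21) overlapped between the genotypes, and none of these markers was called. The part of these markers in the miR-467 differences was not tested, and in whole aortas fewer cells of a type and less RNA per cell cannot be told apart.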

How the data were processed

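Of the tables deposited by the authors, the first holds Ct values and the second linear ratios (relative quantities). Log2 of the deposited ratio was found to equal the mean Ct of U6, snoRNA135 and snoRNA202 (on the second card also snoRNA429) minus the assay's Ct, scaled to the Dicer_WT mean (largest difference 5.22e-06). The third, the authors' deposited fold changes, equals the ratio of arithmetic means for the assays used here. Neither software nor threshold is named in the labels used here.

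Wells at or above Ct 35 were set to 35. To be tested, an assay had to be detected in 2 or more aortas of a group. Testing was done with limma 3.58.1 in R 4.3.3 (two-sided, Benjamini-Hochberg over 377 assays, threshold 0.05), without covariates. Pairs of members without miR-467d were compared by exact permutation over aortas. The limma step was tested on simulated data with independent normal noise, for assays detected in every aorta. The permutation step was checked on an example with a known answer, and the other steps were not simulated. Each aorta counts as 1 animal, and precision is limited by the number of arrays. If replicates were not separate animals, p-values measure only the spread between samples.

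Named were the 5 members, the other miR-467 assays, the neighbouring families, the assays most alike, control RNAs and markers. Members and lists were chosen with earlier results of these data known. Alternatives were other references, mean centring, quantile normalization, detection limits, filters, leaving out aortas and a replicate block.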

Additional observations from a re-analysis of the deposited data

How the results depend on the processing

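Relative to U87 and Y1, the median of the members turned to 0.013 and the count without overlap was 1, with miR-467a at 0.013, miR-467b at 0.36, miR-467e at 0.12 and miR-669a at 0.23. Against the authors' reference RNAs, U87 and Y1 themselves differed between genotypes, by -0.47 and -0.55 (log2, Dicer_KO minus Dicer_WT) on the first card. On the second card these values were -0.42 and -0.86. Relative to snoRNA135 and snoRNA202 the count without overlap was 3. With mean centring that count was 1, with miR-467b at 0.21 and miR-669a at 0.088. After quantile normalization 0 members were called, beside 6 lower and 3 higher among all 377 assays tested, and 1 member did not overlap. In that setting miR-467b was at 0.16, miR-467e at 0.15, miR-669a at 0.024 and the median of all assays at 0.0032. miR-466d-3p turned to -0.047 relative to U6. Leaving out 1 aorta in turn, the members called ranged from 0 (without Dicer_WT replicate 1, with 5 of 372 assays called lower) to 1 (with 7 to 55 assays called lower). Members without overlap ranged from 2 to 5 (without Dicer_KO replicate 1, as for 53.7% of the assays then tested). For the other settings in this paragraph the share of all assays without overlap was not counted, so these counts are no result about the members. The median of the members ranged from -0.75 to -0.34. Without Dicer_KO replicate 2, miR-669a turned to 0.0054 (from -0.57 over the aortas left out) and miR-467a minus miR-467e to 0.012, from -0.22 to 0.012 over the aortas left out. The cause was not tested. At a Ct cutoff of 32, the Dicer_KO wells of miR-467d were above it, and its log2 fold change was a bound of -1.82.

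No clear pairing of the aortas by replicate number was seen (correlation of deviations 0.18, -0.10 and 0.15 for numbers 1 to 3). With so few aortas these values cannot exclude a pairing. With the replicate block, 0 members were called, and 7 of all assays as before. The pair values are the same under the block, and their exact p cannot go below 0.25. In 9 of 10 pairs all 12 alternatives kept the direction, but not the size: miR-467d minus miR-467c ran from -1.97 to -1.01. After quantile normalization miR-467c minus miR-467e reached an exact permutation p of 0.1 (-0.62).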

Other observations

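In the Ct table, 5 of 3180 values were written with a decimal comma, and these were the values of the 5 miR-467 members in Dicer_KO replicate 3. Read with a decimal point, each gave the authors' relative quantity within 3.38e-09 on the log2 scale, so the deposited ratios rest on the same values. Without this aorta, miR-467d stood at -2.62 on the log2 scale, against -2.67 with it.

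The authors' deposited table gives folds of 0.727 for miR-467a, 0.902 for miR-467b, 0.560 for miR-467c, 0.151 for miR-467d and 0.784 for miR-467e, as ratios of arithmetic means.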
